A study of Mus musculus with 23 samples.

Results

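The genes described here lie beside Nr3c1, the gene of the glucocorticoid receptor (GR), on mouse chromosome 18. They were chosen by position, as genes that start in a window of about 5 Mb on each side of Nr3c1 and that had at least 10 counts in at least 3 libraries. The window held 298 annotated genes, of which 296 were considered, because Nr3c1 and another gene were left out beforehand. Of the 296, 131 met this rule, out of 15527 genes that met the same count rule in the whole table, and 165 did not reach it. Nr3c1 itself (chromosome 18, 39410545 to 39519421, GRCm38, minus strand) is not among them. The side with lower coordinates is gene-dense and holds 113 of the 131 genes, whereas the other side holds 18. By annotation, 72 are protein-coding genes outside the clustered protocadherins, 47 are clustered protocadherins (4 Pcdha, 21 Pcdhb and 22 Pcdhg) and 12 are noncoding genes or pseudogenes. All 131 passed the expression filter of the test.

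GR is a nuclear receptor that binds glucocorticoids, enters the nucleus and regulates genes as a monomer or as a dimer, in which 2 receptors contact each other through the DNA-binding domain and through the ligand-binding domain. A mutation placed in a gene travels through a breeding programme together with the DNA around it, because nearby stretches of a chromosome are seldom separated by recombination. Genes flanking a targeted locus can therefore differ between a mutant and its controls through linked sequence, through an effect of the edit on the chromosome around it, or through the altered protein. The window also contains the protocadherin clusters, which encode cell-surface adhesion proteins. Each protocadherin isoform is made from its own promoter, and single cells express only a few of them, so that the choice of isoforms can vary between cell populations.

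RNA-seq was carried out on primary mouse embryonic fibroblasts (MEFs), connective tissue cells grown here from mid-gestation FVB/NJ embryos. Cells were homozygous for the unmodified receptor (GRwt/wt), for an alanine-to-threonine change in the DNA-binding domain (the D change, GRD/D), for the L change in the ligand-binding domain, which replaces isoleucine by alanine (GRL/L), or for both (GRD+L/D+L), and each genotype received solvent (vehicle) or 10 nM dexamethasone (Dex), a synthetic GR ligand, for 5 h. The 23 libraries formed 8 groups of 3, with only 2 in GRD/D vehicle. Each culture of a genotype was derived from another mouse. Both L alleles were made by genome editing of zygotes that received an unmodified Nr3c1 from the mother and the D allele from the father, so that the D allele of GRD+L/D+L descends from the GRD/D line, and the GRD+L line descends from 1 founder pup. The L alleles also carry a synonymous base change at the PAM of the guide. Within each line taken alone, a coding change and the chromosome segment around it cannot be told apart. The D change came into GRD/D and GRD+L/D+L with the same chromosome, so this also holds for the 2 together. The L change was placed on the unmodified chromosome in the GRL line and on the D chromosome in the GRD+L line. What these lines share is the coding change and the synonymous change, which cannot be told apart.

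Library totals were 16.5 M to 23.1 M counts. Because the alleles are point mutations, the level of Nr3c1 does not check the genotype labels. Nr3c1 ranged from 4.08 to 88.0 CPM (counts made comparable between libraries by TMM scaling) in GRwt/wt, from 90.2 to 107 CPM in GRD/D, from 131 to 138 CPM in GRL/L and from 119 to 265 CPM in GRD+L/D+L. All 10 fibroblast markers were present in every library, with a summed level of 32901 to 57396 CPM. The 6 macrophage markers summed to between 5.75 and 1497 CPM, with the exception of GRwt/wt vehicle replicate 3, which held 4376 CPM. GRwt/wt vehicle replicate 1 was least like the others, with a highest Spearman correlation across genes of 0.9365 with any library, against at least 0.947 for the other 22. Both libraries were kept.

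A gene was called at an adjusted p of at most 0.05 (edgeR) and an absolute log2 fold change (LFC) of at least 1. Expressed per kb of exon, the members had a median level of 2.11 CPM per kb over all libraries. Hspa9, a mitochondrial chaperone, was the most abundant with 112 CPM per kb, followed by Dpysl3, a cytoskeletal regulator, with 85.4 CPM per kb and the protocadherin Pcdhgc3 with 61.7 CPM per kb. Gnpda1 ranked 24 of 131 on this scale with 11.1 CPM per kb.

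The first comparison asked whether flanking genes separate cells that carry the D change (GRD/D and GRD+L/D+L) from cells that do not (GRwt/wt and GRL/L). Gnpda1 did so in every library. It encodes glucosamine-6-phosphate deaminase, which converts glucosamine 6-phosphate back to fructose 6-phosphate and so opposes entry of sugar into the hexosamine pathway. The gene (ENSMUSG00000052102) lies at 38327535 to 38339003 on chromosome 18 (GRCm38), 1.07 Mb from Nr3c1, and its exons overlap no other annotated gene. In vehicle, Gnpda1 amounted to 42.9, 29.4 and 38.0 CPM in GRwt/wt, 32.5, 29.9 and 24.2 CPM in GRL/L, 73.4 and 68.2 CPM in GRD/D, and 50.2, 66.7 and 62.3 CPM in GRD+L/D+L. In Dex, it amounted to 30.8, 35.0 and 30.3 CPM in GRwt/wt, 29.9, 32.1 and 27.3 CPM in GRL/L, 75.5, 75.7 and 71.2 CPM in GRD/D, and 45.8, 67.8 and 65.4 CPM in GRD+L/D+L. The lowest carrier library (45.8 CPM) was above the highest non-carrier library (42.9 CPM), and GRD+L/D+L replicate 1 was the lowest carrier under both treatments.

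**Figure D1:**
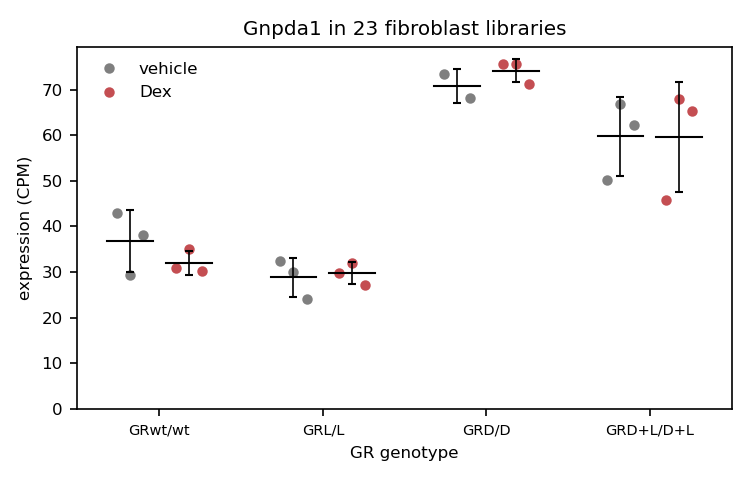
Expression of Gnpda1 (y axis, CPM) in each of the 23 libraries by GR genotype, in vehicle (grey) and Dex (red). Points are libraries, horizontal lines are group means and error bars are SD (n = 3, or 2 in GRD/D vehicle). All 11 libraries with the D change lie at 45.8 CPM or above and all 12 without it lie at 42.9 CPM or below.

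Carriers of the D change had 2.15-fold the Gnpda1 level of non-carriers in Dex, an LFC of 1.11 (SE 0.12, adjusted p 0.000208). The call was made in 17 of 17 alternative analyses, with an LFC of 1.06 to 1.19 and adjusted p-values between 3.63e-17 and 0.00183. In vehicle the LFC was 1.00 (SE 0.12, adjusted p 0.00178), which passed the adjusted p and fell just short of the fold threshold at 0.996. In the fit of the vehicle libraries alone, the vehicle LFC was 1.02 and the adjusted p 0.283. Gnpda1 was the 1 member called in Dex, where 0.0127% of all tested genes were called, and 0 members were called in vehicle, where the share was 0.00635%. In vehicle, 14 members had an unadjusted p under 0.05, beside 1421 of all genes (9.02%), and Gnpda1 was the 1 member with an adjusted p of at most 0.05, next to 0.0127% of all genes. DESeq2 called 2 members in each treatment, Gnpda1 and Fgf1, beside 0.226% of its genes in vehicle and 0.658% in Dex. Of 15748 tested genes, 3 (0.0191%) did not overlap between all carrier and all non-carrier libraries, of which 1 was a member. Gnpda1 was higher in carriers, and the pseudogene Gm8615 on chromosome 5 was lower (LFC -7.07 in vehicle and -6.82 in Dex). Caprin1 was higher by a narrow margin, with at least 529.74 CPM in carriers and at most 529.53 CPM in non-carriers. Its LFC was 0.35 in vehicle (adjusted p 0.741) and 0.14 in Dex, and it was called in neither. Without GRwt/wt vehicle replicates 1 and 3, 21 genes (0.133%) did not overlap, again with Gnpda1 as the 1 member. Among the vehicle libraries alone, 63 genes (0.4%) did not overlap, with Fgf1 and Gnpda1 as the 2 members. Among the Dex libraries alone there were 69 (0.438%), with Gnpda1 as the 1 member. The vehicle and Dex libraries of a culture are not independent, so a separation across both treatments counts some animals again.

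The D change could be examined in 2 comparisons that share no library. Between GRD/D and GRwt/wt, Gnpda1 was the 1 member called in Dex (LFC 1.21, SE 0.17, adjusted p 0.00327), against 0.254% of all genes, and it was called in 11 of 11 alternatives. In vehicle, GRD/D and GRwt/wt differed at 0 of 131 members, against 0.00635% of all genes. Gnpda1 had an LFC of 0.94 there (SE 0.18, adjusted p 0.198), the lowest adjusted p of any member. This count was 6 (4.58%) without GRwt/wt vehicle replicate 3, Gnpda1 and Fgf1 among them, beside 2.4% of all genes in that fit. It was 2 (1.53%, Gnpda1 and Pcdhgc3) without replicates 1 and 3 together, beside 0.346%, and DESeq2 called 1, Fgf1, beside 0.2% of its genes. Between GRD+L/D+L and GRL/L, which differ by the D change, Gnpda1 was the 1 member called in vehicle (LFC 1.05, SE 0.17, adjusted p 0.0156, against 0.0953% of all genes) and in Dex (LFC 1.00, SE 0.17, adjusted p 0.0193, against 0.121%). Both of these calls were lost in fits with only the 2 groups (adjusted p 0.0889 and 0.114) and when any of several single libraries was omitted, with an LFC of at least 0.90 throughout. In vehicle they were GRL/L replicates 2 and 3 and GRD+L/D+L replicates 2 and 3 (adjusted p 0.0596 to 0.169), and in Dex all 3 GRL/L replicates and GRD+L/D+L replicates 2 and 3 (adjusted p 0.0935 to 0.177). The D effect on Gnpda1 did not differ detectably between the 2 L states, with an interaction of 0.10 (SE 0.25, adjusted p 0.85) in vehicle and -0.21 (SE 0.23, adjusted p 0.933) in Dex on the log2 scale.

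None of the other 130 members was called between D carriers and non-carriers in either treatment in the edgeR model used here. The median LFC of the members between D carriers and non-carriers was 0.01 in vehicle and -0.03 in Dex, beside -0.03 and -0.0020 over all tested genes. Within 1 Mb of Nr3c1, 8 members were measured, and 0 of them passed the adjusted p in either treatment. Fgf1, an extracellular fibroblast growth factor whose gene lies 0.481 Mb from Nr3c1, had the largest LFC among these 8, with 2.88 (SE 0.57, adjusted p 0.142) in vehicle and 2.45 (SE 0.54, adjusted p 0.0991) in Dex.

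**Figure D2:**
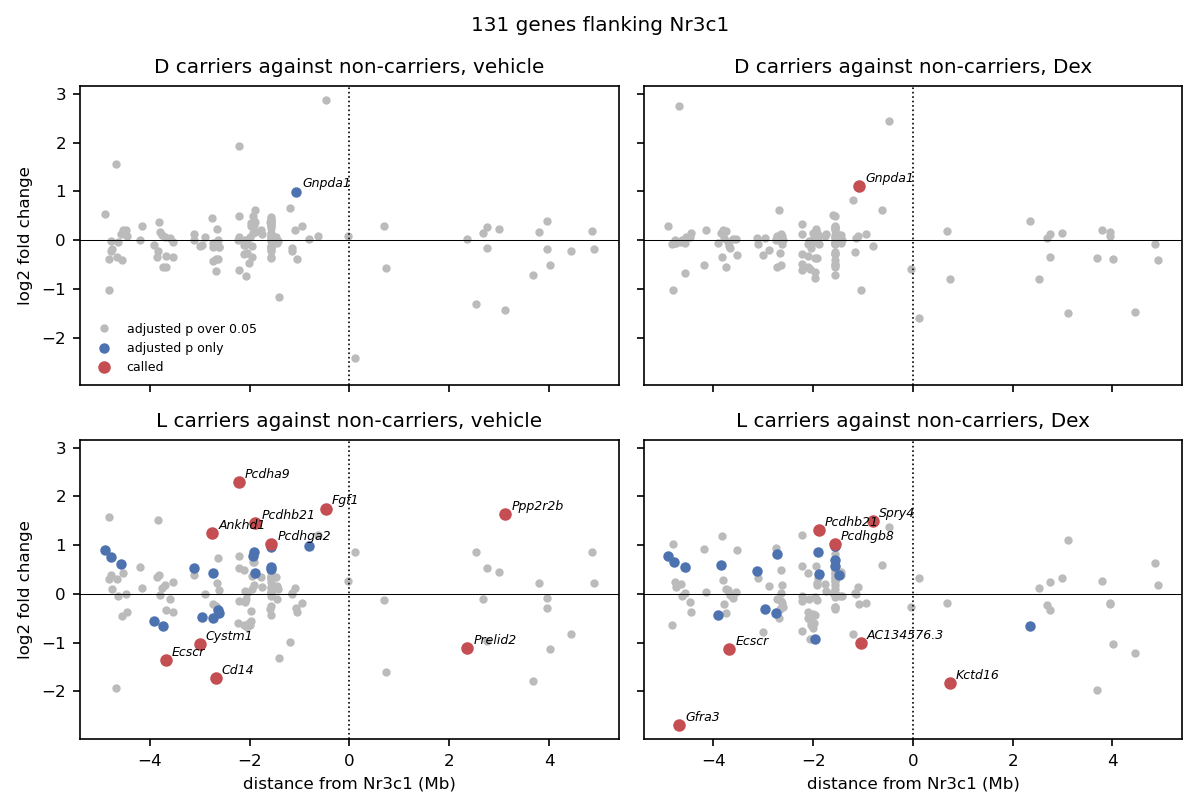
Log2 fold change (y axis) of the 131 flanking genes against distance from Nr3c1 (x axis, Mb, negative towards lower coordinates) for carriers of the D change (upper panels) and of the L change (lower panels) against non-carriers, in vehicle (left) and Dex (right). Red points were called, blue points passed the adjusted p alone, and grey points did not; the D panels hold Gnpda1 as the one coloured point.

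The next comparison asked the same of the L change, which GRD+L/D+L and GRL/L carry and GRwt/wt and GRD/D do not. Here 10 members were called in vehicle, 6 higher and 4 lower in carriers, and 7 in Dex, 3 higher and 4 lower. These are 7.63% and 5.34% of the members, next to 6.08% and 5.19% of all tested genes, and 6.54% and 4.98% of the 321 other tested genes of chromosome 18. The share of flanking genes called was thus near that of the genome. The median LFC of the members was 0.12 in vehicle and 0.04 in Dex, against -0.01 and -0.02 over all genes. In vehicle, Pcdha9, Fgf1, Ppp2r2b, Pcdhb21, Ankhd1 and Pcdhga2 rose and Cd14, Ecscr, Prelid2 and Cystm1 fell. In Dex, Spry4, Pcdhb21 and Pcdhgb8 rose, and Gfra3, Kctd16, Ecscr and AC134576.3 fell. Pcdhb21 and Ecscr were called in both treatments. Several of these calls lay near a threshold and were lost when any of several single libraries was left out. In the full fit, the adjusted p was 0.0456 for Pcdha9 and 0.0394 for Fgf1 in vehicle and 0.0445 for AC134576.3 in Dex. The LFC of Pcdhga2 in vehicle was 1.02. In vehicle, the calls of Pcdha9 (at most 15 counts in any library) and Fgf1 were lost in 8 of 11 leave-outs of a library, that of Pcdhga2 in 6 and that of Cystm1 in 3. Without GRwt/wt vehicle replicate 1, the LFC of Fgf1 was 1.49 (adjusted p 0.0518) and that of Cystm1 was -0.86 (adjusted p 0.0279). With GRwt/wt vehicle replicate 3 left out instead, it was 1.58 for Fgf1 (adjusted p 0.0641), 2.06 for Pcdha9 (adjusted p 0.0755), 0.97 for Pcdhga2 (adjusted p 0.00374) and 1.57 for Ppp2r2b (adjusted p 0.0552). In Dex, the call of the processed pseudogene AC134576.3 was lost in 10 of 12 leave-outs, that of Gfra3 in 8 and that of Pcdhgb8 in 5. The vehicle count was 2 (1.53%) without GRD/D vehicle replicate 1, where the share of all genes also fell, to 2.82%. The Dex count was 2 (1.53%) in the absence of replicate 2 of GRD+L/D+L Dex, beside 3.78% of all genes, and between 3 and 4 (2.29% and 3.05%) without GRD/D Dex replicate 2, GRL/L Dex replicate 1 or 3 or GRwt/wt Dex replicate 3, beside 3.85% to 4.22% of all genes.

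**Figure D3:**
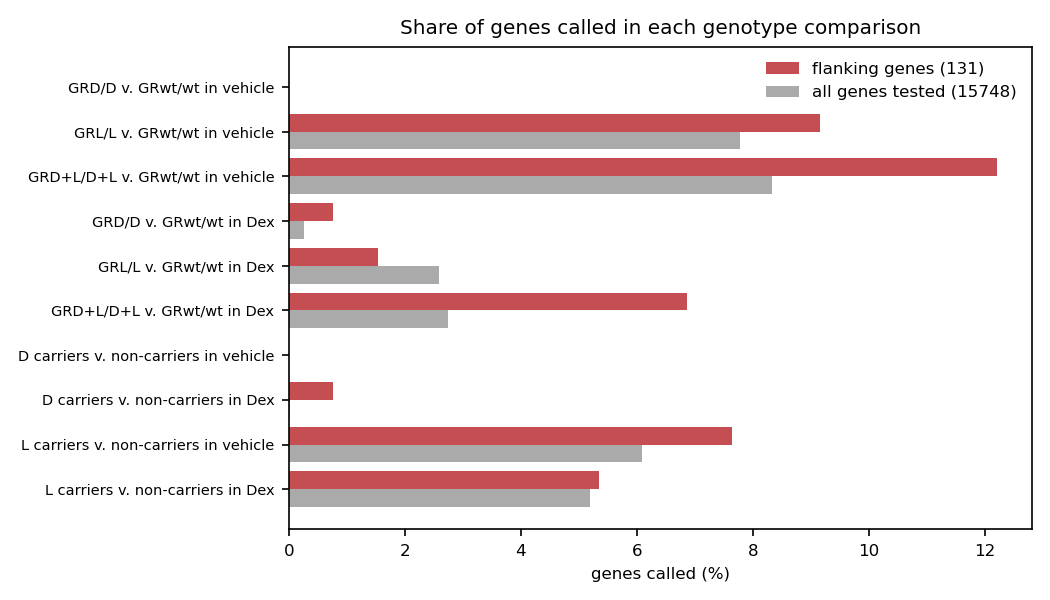
Percentage of genes called (x axis) in each genotype comparison (y axis) among the 131 flanking genes (red) and among all 15748 genes tested (grey). The flanking genes are at 12.2% and the background at 8.32% in GRD+L/D+L against GRwt/wt in vehicle, while the bars are close for carriers of the L change (7.63% against 6.08% in vehicle and 5.34% against 5.19% in Dex).

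In the comparison across all libraries, 11 members (8.4%) did not overlap between L carriers and non-carriers, beside 6.74% of all genes. Fam13b, Brd8, Kdm3b, Pura, Ankhd1, Pcdhb19, Pcdhb21 and Spry4 were higher, and Sil1, Pfdn1 and Sra1 were lower. Without GRwt/wt vehicle replicates 1 and 3, the count was 13, beside 8.77% of all genes. As for the D change, a separation across both treatments counts some animals again.

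Among signalling genes, Spry4 had the clearest difference. Spry4 is a feedback inhibitor of receptor tyrosine kinase and MAP kinase signalling, and its gene (38586247 to 38601415) lies 0.809 Mb from Nr3c1. In vehicle, Spry4 amounted to 11.0, 7.41 and 7.16 CPM in GRwt/wt, 12.3 and 12.3 CPM in GRD/D, 25.9, 19.9 and 25.9 CPM in GRL/L, and 12.3, 19.4 and 19.7 CPM in GRD+L/D+L. In Dex, it amounted to 6.32, 10.5 and 5.49 CPM in GRwt/wt, 9.26, 6.50 and 10.8 CPM in GRD/D, 32.4, 25.6 and 23.7 CPM in GRL/L, and 17.3, 19.7 and 21.3 CPM in GRD+L/D+L. All carriers of the L change were above all non-carriers, although GRD+L/D+L vehicle replicate 1 (12.33 CPM) was barely above the highest GRD/D vehicle library (12.31 CPM). The LFC in Dex was 1.50 (SE 0.18, adjusted p 8.43e-05) and was called in 17 of 17 alternatives. In vehicle it was 0.98 (SE 0.20, adjusted p 0.00216), short of the fold threshold.

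Spry4 was called in Dex in 2 comparisons without shared libraries. The LFC of GRL/L against GRwt/wt was 1.87 (SE 0.26, adjusted p 0.00117), called in 11 of 11 alternatives, and that of GRD+L/D+L against GRD/D was 1.13 (SE 0.26, adjusted p 0.015). The latter call was lost when GRD/D Dex replicate 1 (adjusted p 0.0519) or 2 (adjusted p 0.0773) was omitted.

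Fgf1, an activating ligand of the FGF receptors, was higher in each mutant genotype than in GRwt/wt, also in GRD/D without the L change, but rested on few reads. Its counts were 0 to 5 per library in GRwt/wt, 8 to 36 in GRD/D, 6 to 19 in GRL/L and 20 to 69 in GRD+L/D+L. In vehicle, this corresponded to 0, 0.268 and 0.0453 CPM in GRwt/wt, 1.77 and 1.45 CPM in GRD/D, 0.444, 1.02 and 0.724 CPM in GRL/L, and 1.04, 3.16 and 3.94 CPM in GRD+L/D+L. In Dex, there were 0.0505, 0.234 and 0.312 CPM in GRwt/wt, 0.457, 1.72 and 0.977 CPM in GRD/D, 0.516, 0.664 and 0.319 CPM in GRL/L, and 1.09, 3.91 and 3.56 CPM in GRD+L/D+L. Every mutant library was above every GRwt/wt library. Against GRwt/wt, the call was made in GRD+L/D+L in vehicle (LFC 4.63, SE 0.86, adjusted p 0.00208) and Dex (LFC 3.82, SE 0.80, adjusted p 0.0132) and in GRL/L in vehicle (LFC 2.75, SE 0.86, adjusted p 0.0291), whereas GRD/D had an LFC of 3.88 in vehicle (SE 0.90, adjusted p 0.246) and 2.40 in Dex (SE 0.80, adjusted p 0.23). In GRL/L in Dex, Fgf1 was not called. Leaving out single libraries ended the GRL/L call in vehicle in 4 of 6 cases and the GRD+L/D+L call in Dex in 2 of 6, but not that in vehicle. With so few GRwt/wt counts the fitted LFC is imprecise and depends on the prior count.

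**Figure D4:**
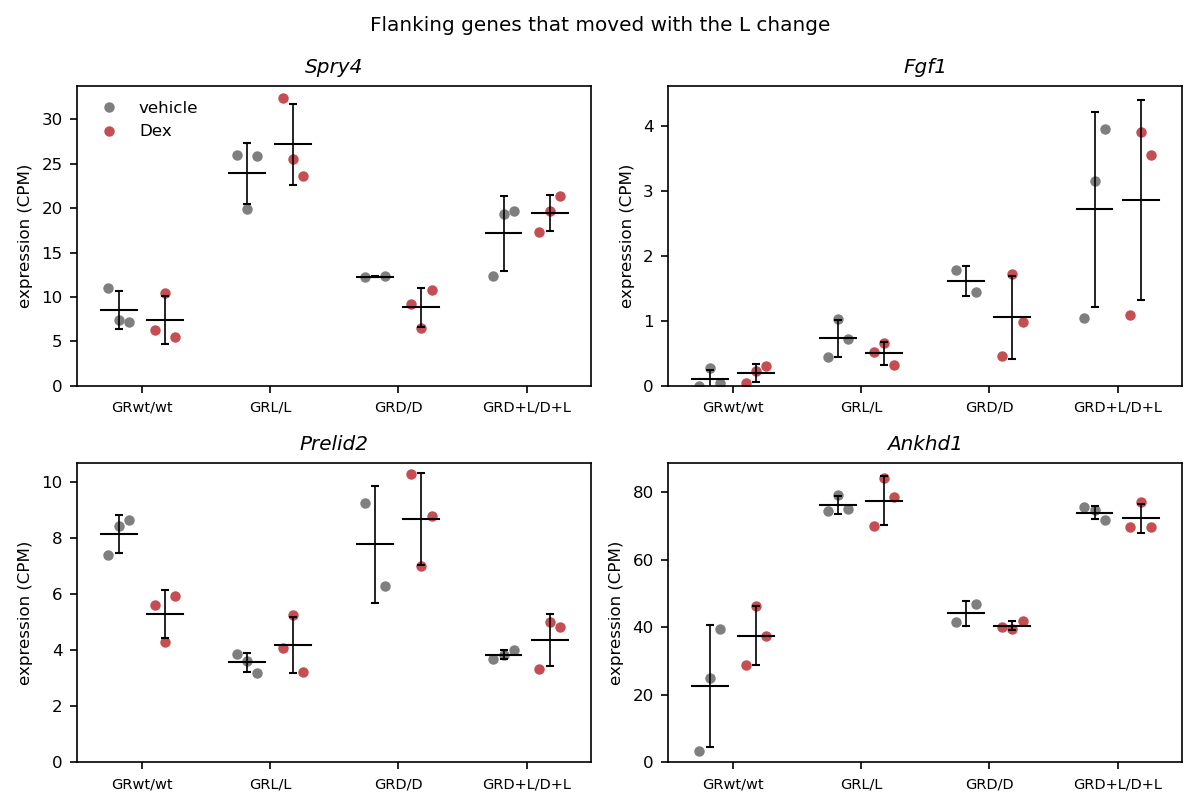
Expression (y axis, CPM) of Spry4, Fgf1, Prelid2 and Ankhd1 in each library by GR genotype, in vehicle (grey) and Dex (red), with group means and SD. Spry4 and Ankhd1 are higher and Prelid2 in vehicle is lower in both genotypes with the L change, and Fgf1 is lowest in GRwt/wt.

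Of the 10 signalling genes listed among the members, 2 rose and 1 fell in L carriers in vehicle, and 1 rose in Dex, where 6.08% and 5.19% of all genes were called. Ppp2r2b, a regulatory subunit of protein phosphatase 2A, rose in vehicle (LFC 1.63, SE 0.56, adjusted p 0.0435), but its groups overlapped, with 0.229 to 2.18 CPM in GRD+L/D+L and 0.644 to 1.82 CPM in GRwt/wt, and the call was lost in 9 of 11 leave-outs of a library. Egr1, an immediate early transcription factor, had an LFC of 0.43 in vehicle (adjusted p 0.134) and 0.52 in Dex (adjusted p 0.0705). Hbegf, a ligand of the EGF receptor, had an LFC of -0.01 and 0.17.

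Cd14, the co-receptor for lipopolysaccharide on macrophages, fell in L carriers in vehicle (LFC -1.72, SE 0.52, adjusted p 0.0266), a call lost in 6 of 11 leave-outs. The GRwt/wt vehicle libraries held 3.64, 2.04 and 33.4 CPM of Cd14, and the 6 L carrier libraries in vehicle held 1.94 to 3.55 CPM. The value of 33.4 CPM belonged to GRwt/wt vehicle replicate 3, in which the macrophage gene Lyz2 reached 3379 CPM, while the remaining GRwt/wt libraries had 6.68 to 63.6 CPM. Over the 6 macrophage markers, the summed level was 15.7 to 4376 CPM in GRwt/wt vehicle, 247 to 890 CPM in GRD/D vehicle, 282 to 643 CPM in GRL/L vehicle and 6.40 to 74.6 CPM in GRD+L/D+L vehicle. Without that library, the LFC of Cd14 in L carriers was -0.59 (adjusted p 0.158). Without GRwt/wt vehicle replicates 1 and 3, its LFC against GRwt/wt was 0.31 in GRD+L/D+L and 0.36 in GRL/L.

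Of 7 listed adhesion and cytoskeletal genes outside the protocadherin clusters, 0 were called in L carriers in either treatment. By the adjusted p alone, which 22.1% of all genes passed in vehicle and 17.7% in Dex, 0 of the 7 passed in vehicle and 1 in Dex, namely Diaph1, a formin that nucleates actin filaments (LFC 0.39, SE 0.13, adjusted p 0.0472). Ecscr, an endothelial cell-surface protein, fell in L carriers in vehicle (LFC -1.36, SE 0.37, adjusted p 0.014) and Dex (LFC -1.13, SE 0.35, adjusted p 0.0349). Leaving out single libraries ended the vehicle call in 1 of 11 cases and the Dex call in 8 of 12. The GRwt/wt libraries held 6.18, 11.0 and 8.24 CPM of Ecscr in vehicle, whereas GRD+L/D+L held 1.66, 1.37 and 3.77 CPM. GRL/L came closer to GRwt/wt in vehicle, with 6.08 CPM in replicate 2, and Ecscr was not called between these genotypes there. In Dex, the GRwt/wt libraries held 3.99, 2.67 and 7.93 CPM and overlapped those of GRL/L with 3.94, 4.92 and 2.87 CPM. The endothelial markers Pecam1, Cdh5 and Kdr summed to 4.36 to 6.52 CPM in GRwt/wt vehicle and 1.30 to 17.9 CPM in GRD+L/D+L vehicle, and Pecam1 was at 0 in 9 of 23 libraries. Their part in the level of Ecscr was not tested.

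Among 13 genes of nuclear and RNA functions, 0 were called between L carriers and non-carriers in either treatment. By the adjusted p alone, 5 passed in vehicle, 3 higher and 2 lower, and 3 in Dex, all higher, where 22.1% and 17.7% of all genes passed. The same 3 were higher in both treatments. Brd8, a bromodomain subunit of a histone acetyltransferase complex, had 58.4 to 78.7 CPM in L carriers and 25.4 to 46.7 CPM in non-carriers (LFC 0.75 in vehicle, adjusted p 0.000517). Kdm3b, a histone H3 lysine demethylase, had 90.3 to 119 CPM in carriers and 49.5 to 80.2 CPM in non-carriers (LFC 0.61 in vehicle, adjusted p 0.000719). Pura, a nucleic acid-binding protein, had 31.6 to 39.9 CPM and 12.2 to 30.9 CPM (LFC 0.53 in vehicle, adjusted p 0.0294). The 2 that were lower in vehicle were Hars, a tRNA synthetase, and Zmat2.

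Of 9 genes of cell division and protein handling, 2 were lower in L carriers at the adjusted p alone in both treatments, where 22.1% and 17.7% of all genes passed. Sil1, a nucleotide exchange factor of the endoplasmic reticulum chaperone BiP, had 28.5 to 41.5 CPM in carriers and 41.9 to 67.5 CPM in non-carriers (LFC -0.55 in vehicle, SE 0.11, adjusted p 0.00216). Pfdn1, a subunit of the co-chaperone prefoldin, had 48.9 to 60.7 CPM in carriers and 61.2 to 99.3 CPM in non-carriers (LFC -0.47 in vehicle, SE 0.10, adjusted p 0.00399).

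Ankhd1, an ankyrin-repeat protein with a KH domain, rose in L carriers in vehicle (LFC 1.25, SE 0.35, adjusted p 0.0174), a call lost in 3 of 11 leave-outs (LFC 0.996, adjusted p 3.84e-05 without GRwt/wt vehicle replicate 1), and had an LFC of 0.94 in Dex (adjusted p 0.0523). It ranged from 69.8 to 84.2 CPM in carriers and from 3.31 to 46.8 CPM in non-carriers, and 3.31 CPM was the value of GRwt/wt vehicle replicate 1. Fam13b, which lies 4.90 Mb from Nr3c1 near the edge of the window, ranged from 75.9 to 97.3 CPM in carriers and from 8.77 to 68.7 CPM in non-carriers. Prelid2, on the other side of Nr3c1 at 2.36 Mb, fell in vehicle (LFC -1.11, SE 0.17, adjusted p 0.000329). Its vehicle values were 7.39, 8.43 and 8.65 CPM in GRwt/wt, 9.26 and 6.31 CPM in GRD/D, 3.89, 3.61 and 3.21 CPM in GRL/L, and 3.68, 3.84 and 4.00 CPM in GRD+L/D+L. All 6 vehicle libraries with the L change were below all 5 without it. In Dex the groups overlapped, because GRwt/wt held 5.61, 4.31 and 5.93 CPM, and the LFC was -0.66 (SE 0.16, adjusted p 0.00936).

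Of the 5 nearest members on each side of Nr3c1, 2 of 10 were called for the L change in vehicle (Fgf1 and Prelid2) and 2 of 10 in Dex (Spry4 and Kctd16), where 6.08% and 5.19% of all genes were called. Arhgap26, a GTPase-activating protein whose gene ends 0.034 Mb away, had an LFC of 0.27 (adjusted p 0.43) in vehicle and -0.26 (adjusted p 0.456) in Dex for the L change, and of 0.08 and -0.60 for the D change. Its exons overlap antisense transcripts and a second gene model of the same name, so its counts are uncertain. Ndfip1, an adaptor of Nedd4-family ubiquitin ligases, had an LFC of -0.18 in both treatments for the L change (adjusted p 0.287 and 0.295). Yipf5, a membrane protein of the early secretory pathway, had an LFC of -0.12 and -0.18 for the L change. Kctd16, an auxiliary subunit of GABA-B receptors, fell in L carriers in Dex (LFC -1.83, SE 0.57, adjusted p 0.0334), with at most 14 counts in any library and a call lost in 8 of 12 leave-outs. AC124518.1, AC133601.1 and Sh3rf2 did not reach 2.5 CPM in any library and were called in neither treatment.

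The clustered protocadherins are 47 of the 131 members. Against GRwt/wt in vehicle, 16 members were called in GRD+L/D+L, 11 higher and 5 lower. This is 12.2%, beside 8.32% of all genes and 9.66% of the rest of chromosome 18. Of the 16, 7 were protocadherins, all higher (14.9% of the protocadherins and 10.7% of the 84 other members). In Dex, 9 members were called, 6 higher and 3 lower, which is 6.87% beside 2.75% of all genes and 3.74% of the rest of chromosome 18, and 6 of the 9 were protocadherins, 4 higher and 2 lower (12.8% and 3.57%). In GRL/L against GRwt/wt, 12 members were called in vehicle, 9 higher and 3 lower (9.16% beside 7.78% of all genes), of which 4 were protocadherins, all higher (8.51% of them and 9.52% of the other members), and 2 in Dex (Spry4 and Pcdhgc4, 1.53% beside 2.59%), both higher. The Pcdhgc4 call was lost in 4 of 6 leave-outs. The 2 protocadherins that were lower in GRD+L/D+L in Dex, Pcdhb13 and Pcdhb14, had adjusted p-values of 0.039 and 0.0382, and both calls were lost in 6 of 6 leave-outs, as that of Pcdhb21 was in 4 of 6. The difference between protocadherins and other members was not tested. These comparisons share the GRwt/wt libraries. Fits with only the 2 groups compared called 0 members and 0% of all genes in GRD+L/D+L and in GRL/L in vehicle, and 0 members and 0.0572% of all genes in GRD+L/D+L in Dex. The Dex count of GRD+L/D+L fell to 2 when replicate 2 of that group, GRwt/wt Dex replicate 1 or GRwt/wt Dex replicate 3 was left out (1.53%, beside 0.598%, 1.99% and 0.834% of all genes), and the vehicle count of GRL/L was 20 (15.3%) without GRwt/wt vehicle replicate 3, beside 17.1% of all genes in that fit.

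Pcdhb21 amounted to 0.938, 2.47 and 2.90 CPM in GRwt/wt, 3.60 and 3.52 CPM in GRD/D, 5.83, 7.16 and 6.00 CPM in GRL/L, and 11.2, 8.78 and 6.83 CPM in GRD+L/D+L in vehicle. In Dex, it amounted to 3.23, 5.29 and 2.62 CPM in GRwt/wt, 3.66, 2.36 and 3.47 CPM in GRD/D, 6.00, 8.85 and 7.28 CPM in GRL/L, and 12.7, 10.1 and 6.94 CPM in GRD+L/D+L. All L carriers were above all non-carriers. The LFC was 1.46 in vehicle (SE 0.27, adjusted p 0.00146) and 1.32 in Dex (SE 0.25, adjusted p 0.00213), and each call was made in 17 of 17 alternatives. Its exons overlap those of the neighbouring Pcdhb22, for which the LFC was 0.43 and 0.41 (adjusted p 0.00663 and 0.0084).

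In the Pcdhg cluster, Pcdhga1 and Pcdhga2 were highest in GRD+L/D+L. Pcdhga1 had 23.9 to 25.3 CPM there in vehicle and 24.4 to 27.3 CPM in Dex, compared with 14.3 to 20.2 and 15.4 to 20.9 CPM in GRL/L, 9.90 to 12.7 and 6.65 to 10.8 CPM in GRD/D and 8.48 to 10.7 and 10.5 to 15.7 CPM in GRwt/wt. The GRD+L/D+L libraries overlapped no other genotype. Against GRD/D, a comparison that leaves the GRwt/wt libraries aside, Pcdhga1 was called in vehicle (LFC 1.13, adjusted p 0.0209) and Dex (LFC 1.49, adjusted p 0.000838). The Dex call was made in 11 of 11 alternatives, and the vehicle call was lost when either GRD/D library or replicate 2 of GRD+L/D+L was left out. In that comparison, 2 members were called in vehicle (Pcdhga1 and Prelid2, beside 1.02% of all genes) and 7 in Dex (Spry4, Pcdhb21, Ecscr, Gm10544, Pcdhgb8, Pcdhga1 and Pcdhga2, beside 3.61% of all genes). The Prelid2 call was lost in 5 of 5 leave-outs, those of Ecscr and Gm10544 in Dex in 5 of 6, that of Pcdhgb8 in 4 of 6 and that of Pcdhb21 in 1 of 6, whereas that of Pcdhga2 was lost in 0 of 6.

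Other protocadherins varied between libraries of 1 genotype, with similar values in vehicle and Dex. Pcdhga7 amounted to 36.6, 12.2 and 14.7 CPM in the GRD+L/D+L vehicle libraries and to 35.3, 10.3 and 14.2 CPM in the equally numbered Dex libraries, whereas GRL/L held 31.3 to 41.8 CPM in all 6 libraries. Pcdhgb8 amounted to 13.7, 25.6 and 17.1 CPM in GRD+L/D+L vehicle and 17.6, 30.2 and 16.3 CPM in Dex, and Pcdhb16 to 16.5, 9.51 and 7.48 CPM and 16.2, 9.20 and 8.83 CPM. Replicate 1 was high for Pcdhga7 and Pcdhb16, and replicate 2 for Pcdhgb8. In GRD+L/D+L and GRL/L, libraries with the same number deviated together across all genes, with correlations of 0.289 to 0.868.

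**Figure D5:**
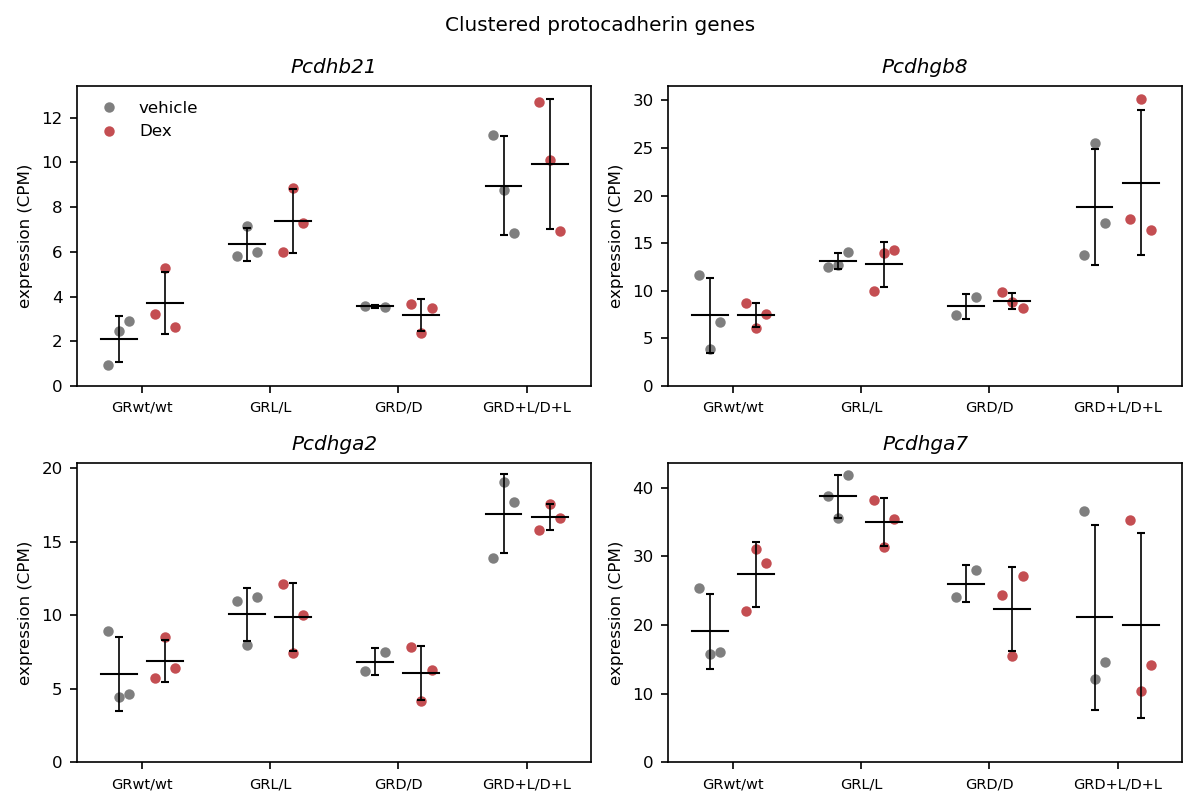
Expression (y axis, CPM) of Pcdhb21, Pcdhgb8, Pcdhga2 and Pcdhga7 in each library by GR genotype, in vehicle (grey) and Dex (red), with group means and SD. Points within a group are in the order of their replicate numbers; in GRD+L/D+L, Pcdhga7 is at 36.6 and 35.3 CPM in replicate 1 and at 10.3 to 14.7 CPM in replicates 2 and 3.

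Summed over a cluster, Pcdhg expression was 408 ± 173 CPM (SD, n = 3) in GRwt/wt vehicle and 424 ± 61.9 CPM (n = 3) in GRwt/wt Dex, beside 660 ± 27.9 and 653 ± 35.5 CPM (n = 3 each) in GRL/L, 689 ± 95.8 and 660 ± 67.0 CPM (n = 3 each) in GRD+L/D+L, and 581 ± 72.7 (n = 2) and 503 ± 57.3 CPM (n = 3) in GRD/D. Pcdhgc3, the most abundant isoform, accounted for much of this, with 310 to 536 CPM in GRD+L/D+L and 128 to 353 CPM in GRwt/wt. Its LFC for the L change was 0.51 in vehicle (SE 0.21, adjusted p 0.0841) and 0.58 in Dex (SE 0.19, adjusted p 0.0463). In vehicle, the Pcdhb genes summed to 87.9 ± 29.9 CPM in GRwt/wt (n = 3), 120 ± 3.36 CPM in GRD/D (n = 2), 138 ± 11.5 CPM in GRL/L and 133 ± 30.9 CPM in GRD+L/D+L (n = 3 each). The GRwt/wt libraries reached 105.7 CPM and those of GRD+L/D+L began at 104.7 CPM, so that these groups overlapped. In Dex, the Pcdhb sums were 125 ± 16.6 CPM in GRwt/wt, 116 ± 6.42 CPM in GRD/D, 138 ± 13.3 CPM in GRL/L and 140.2 ± 28.6 CPM in GRD+L/D+L (n = 3 each), and GRwt/wt overlapped each mutant. Without GRwt/wt vehicle replicate 1, the GRwt/wt vehicle sums were 105 ± 0.690 CPM for Pcdhb and 314 ± 84.2 CPM for Pcdhg (n = 2). The Pcdha sums stayed below 12 CPM in every library. In vehicle, the median LFC of the 47 protocadherins for the L change was 0.32, with 35 of 47 above 0, and in Dex it was 0.19, with 28 of 47 above 0. In vehicle, the median against GRwt/wt was also above 0 in GRD/D, which lacks the L change (0.43, with 43 of 47 above 0), and Dex against vehicle in GRwt/wt gave 0.35, with 40 of 47 above 0. These medians share the GRwt/wt vehicle libraries. The Pcdha and Pcdhg genes share their last exons in the annotation and overlap one another, so that the assignment of reads to single isoforms is uncertain.

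Finally, Dex was compared with vehicle in each genotype. In GRwt/wt, 0 of 131 members were called, beside 0.159% of all genes, and 14 members had an unadjusted p under 0.05, beside 2454 of all genes (15.6%). In the 3 mutant genotypes, 0 members were called, with 1 member each at an unadjusted p under 0.05, and the share of all genes called was 0% in each. DESeq2 called 1 member in GRwt/wt, Cd14, which was lower with Dex, beside 1.78% of its genes. Cd14 was also called with edgeR when GRwt/wt vehicle replicate 1 or 2, but not replicate 3 with its 33.4 CPM, was left out. For Gnpda1, Dex gave an LFC of -0.0012 in GRD+L/D+L, 0.04 in GRL/L, 0.07 in GRD/D and -0.20 in GRwt/wt, with an SE of 0.16 to 0.18. The difference of the D effect on Gnpda1 between Dex and vehicle was 0.11 (SE 0.17, adjusted p 1).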

How the data were processed

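Raw read counts per Ensembl gene, as deposited, were used. Per the labels and methods, the authors made them from TruSeq libraries sequenced on a NovaSeq instrument, mapped with HISAT2 2.1.0 to mm10 (GRCm38), and counted from unique reads with featureCounts 2.0.0 (versions from the submitters' processing notes). Strandedness was not given in the sources used here, so genes whose exons overlap (65 of 131 members) have uncertain counts. Symbols and coordinates were taken from GENCODE M21. Depth was 16.5 M to 23.1 M counts per library.

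All 23 libraries entered 1 edgeR 4.0.16 quasi-likelihood model (R 4.3.3) with a mean per group, TMM scaling and filterByExpr, which left 15748 genes. It treated all libraries as independent, also vehicle and Dex libraries that may come from 1 culture, so its p-values do not allow for this. LFC used a prior count of 0.125, SE came from LFC and F, and p-values were Benjamini-Hochberg adjusted over all genes. CPM are TMM-scaled. Members, role lists and named genes (nearest, called in both treatments, most changed per mutant, role lists, most abundant protocadherins) were chosen with earlier results of these data known. Comparisons of GRD+L/D+L with each single mutant and of interactions, and counts of members without overlap in part of the libraries, were added after seeing the data. Alternatives were RLE scaling, no filter, adjusted p alone, DESeq2 1.42.0, fits of only the groups compared, the replicate number as a block and leaving out libraries. The model was tested on simulated data for D carriers in Dex.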

Additional observations from a re-analysis of the deposited data

How the results depend on the processing

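Alternatives covered 18 counts of members called. The replicate block (the replicate number, within genotype for Dex) gave 1 member in place of 0 for D carriers in vehicle (Fgf1, beside 0.0191% of all genes), 1 in place of 0 for Dex in GRwt/wt (AC134576.3, a pseudogene, beside 1.26%), 1 in place of 2 for GRD+L/D+L against GRD/D in vehicle (beside 195 of all genes), and no other change above 1.5 times. Pairing by replicate number held by correlation in GRD+L/D+L and GRL/L alone, and the labels state no pairing. In GRwt/wt, equally numbered libraries had correlations of 0.537, 0.0127 and -0.0449. There, vehicle replicate 2 had a correlation of 0.524 with Dex replicate 3, and vehicle replicate 3 one of 0.38 with Dex replicate 2. The block used equal numbers, so its Dex result in GRwt/wt rests in part on pairs with correlations near 0. Fits with only the groups compared hold fewer samples. They called 0 members in GRD+L/D+L and 0 in GRL/L against GRwt/wt in vehicle (0% of all genes in each), 0 in GRD+L/D+L in Dex (0.0572%), 0 for GRD+L/D+L against GRL/L (0 of all genes in vehicle and 2 in Dex), 0 against GRD/D in vehicle (0 of all genes), and 4 for L carriers in vehicle (2.73%). By adjusted p alone, the counts of members, each with the share of all genes, were 28 (GRL/L, vehicle, 23%), 29 (GRD+L/D+L, vehicle, 20.4%), 6 (GRL/L, Dex, 5.47%), 15 (GRD+L/D+L, Dex, 4.89%), 1 and 29 (D and L carriers, vehicle, 0.0127% and 22.1%) and 25 (L carriers, Dex, 17.7%), and 16 for GRD+L/D+L against GRD/D in Dex, beside 1087 of all genes. DESeq2 called 1 member in GRD/D in vehicle (0.2% of all genes), 2 for D carriers in each treatment (0.226% in vehicle and 0.658% in Dex), 1 for Dex in GRwt/wt (1.78%), and, for GRD+L/D+L, 3 against GRL/L in Dex (162 of all genes) and 7 against GRD/D in vehicle (472). RLE scaling gave 1 for D carriers in vehicle (0.0127%). Without an expression filter, the counts were 1 for D carriers in vehicle (0.0068%), 3 for L carriers in Dex (2.44%) and 1 for GRD+L/D+L against GRD/D in vehicle (105 of all genes). Without GRwt/wt vehicle replicates 1 and 3, there were 2 members in GRD/D (0.346%) and 1 for D carriers in vehicle (0.111%), and the LFC of Cd14 turned to 0.3109 (GRD+L/D+L) and 0.3612 (GRL/L). The cause of these shifts was not tested.

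When single libraries were left out, the counts against GRwt/wt in vehicle ranged from 0 to 6 in GRD/D (0% to 2.4% of all genes in the same fits), 8 to 20 in GRL/L (5.04% to 17.1%) and 10 to 22 in GRD+L/D+L (3.73% to 12.8%, 10 without its replicate 2), and in Dex from 1 to 3 in GRL/L (0.942% to 2.99%) and 2 to 11 in GRD+L/D+L (0.598% to 3.37%). D carriers gave 0 to 1 in vehicle (0.00613% to 0.0957%) and 1 in Dex (0.0127% to 0.102%). L carriers gave 2 to 14 in vehicle (2.82% to 8.58%) and 2 to 7 in Dex (3.78% to 5.87%). Dex in GRwt/wt gave 0 to 1 (0.0893% to 2.39%). GRD+L/D+L gave 0 to 1 against GRL/L in vehicle (3 to 15 of all genes) and in Dex (3 to 13), and 0 to 2 in vehicle (7 to 166) and 4 to 10 in Dex (260 to 515) against GRD/D. Where a group of 2 lost a library, the remaining one was assumed to vary like the other groups. Of 889 alternative values of the 69 calls of single members, 618 kept the call, 269 lost it and 2 changed sign. The SE was 0.57 for Kctd16 (at most 14 counts) and 0.12 for the more abundant Gnpda1, both in L carriers in Dex. The part of depth in this was not tested.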
